A study of Mus musculus with 80 samples.

Results

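RXR-DNA binding sites were compared between livers of WT mice and of liver-specific PPARγ KO mice that had both received a high-fat diet with pioglitazone (HFD-Pio). The comparison held 5 ChIP libraries of each genotype, chosen by their titles, out of 40 ChIP libraries in the study. Every library came from the liver of a male C57BL6/J mouse aged 5 months that had been on its diet for 12 weeks, and each library was taken as a separate animal. Per the study's methods the KO mice carried loxP sites in Pparg and an Alb-Cre transgene, which drives Cre in hepatocytes, so that other liver cells kept the gene, while WT mice were C57BL6/J without these alleles. The labels name the RXR antibody sc-774 for the 5 WT libraries but give no antibody for the 5 KO libraries, whose titles name RXR, and every comparison rests on taking them as RXR ChIP. Peaks with a q of at most 0.05 on chromosomes 1 to 19, X and Y were kept in both genotypes and merged into sites where they overlapped. This gave 69745 sites, where all 40 libraries of the study gave 151644 by the same rule.

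RXR is a nuclear receptor that binds DNA as the partner of other receptors, among them the PPARs, LXR, FXR and the thyroid hormone and retinoic acid receptors. PPARγ with RXR binds direct repeats of the hexamer AGGTCA with a single base between them. In fat cells this pair drives lipid storage genes, in the liver it promotes steatosis, and pioglitazone, a thiazolidinedione, is an agonist of PPARγ. The comparison addressed the question of which RXR-bound sites of treated livers depend on hepatocyte PPARγ. Sites were sorted by where their peaks lay, since most of them lay in exons rather than in promoters or introns.

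The libraries differed by genotype before any site was compared. WT libraries kept 2.04 to 4.26 Mtags (Mtag, 1e6 sequence tags) and KO libraries 0.628 to 0.879 Mtags, redundant tags made up 23 to 44% and 53 to 71%, and peaks had been called at a p cutoff of 0.001 in WT and a q cutoff of 0.05 in KO livers. Genotype cannot be told apart from depth, and only the cutoff could be made equal. The fragment length estimated by the peak caller was 46 to 47 bp in WT 1, WT 4 and WT 5, 169 and 184 bp in WT 2 and WT 3, and 139 to 168 bp in the KO livers. Values are therefore also given without WT 1, WT 4 and WT 5. Peak lists hold no reads per site, so that no counting interval was available and an absent peak is not an absence of binding.

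The exons of 4 genes show what the sites of each class looked like. The sequences are the mouse reference (GRCm38, mm10) on the plus strand, which is the strand of all 4 genes, with the exon in capitals and 20 bases of intron on either side in lower case. Selenbp2 (chr3:94702461-94702622) stands for genes called in WT livers only, Crmp1 (chr5:37288785-37288990) for KO livers only and Atp5b (chr10:128085422-128085646) for both, and Pparg (chr6:115463066-115463305) is the gene deleted in the KO mice.
Selenbp2 exon 9 of 12: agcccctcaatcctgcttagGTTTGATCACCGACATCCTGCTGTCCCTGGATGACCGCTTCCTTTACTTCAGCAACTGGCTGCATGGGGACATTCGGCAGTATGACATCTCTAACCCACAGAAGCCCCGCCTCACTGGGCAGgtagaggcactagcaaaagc
Crmp1 exon 13 of 14: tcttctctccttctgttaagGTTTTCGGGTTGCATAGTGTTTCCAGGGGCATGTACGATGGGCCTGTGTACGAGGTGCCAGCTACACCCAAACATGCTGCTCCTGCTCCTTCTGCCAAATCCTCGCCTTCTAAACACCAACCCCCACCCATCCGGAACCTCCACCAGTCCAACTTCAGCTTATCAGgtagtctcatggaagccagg
Atp5b exon 5 of 10: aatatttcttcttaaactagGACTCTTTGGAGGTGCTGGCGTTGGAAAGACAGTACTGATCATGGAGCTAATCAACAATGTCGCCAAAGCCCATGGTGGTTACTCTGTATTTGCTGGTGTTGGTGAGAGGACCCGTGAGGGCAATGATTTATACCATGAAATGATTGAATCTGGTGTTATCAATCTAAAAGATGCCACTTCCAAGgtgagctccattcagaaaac
Pparg exon 6 of 8: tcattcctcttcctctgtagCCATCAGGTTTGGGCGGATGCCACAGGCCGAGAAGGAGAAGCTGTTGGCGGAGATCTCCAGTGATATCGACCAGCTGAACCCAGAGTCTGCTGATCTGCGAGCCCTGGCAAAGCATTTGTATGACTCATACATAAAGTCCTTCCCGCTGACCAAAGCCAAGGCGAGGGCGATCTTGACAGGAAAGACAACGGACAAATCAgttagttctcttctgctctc

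Peaks over these exons lay within the capitals in WT 1, WT 4 and WT 5 and reached into the introns in the other livers. At Selenbp2, the peaks of WT 1, WT 4 and WT 5 were 88 to 91 bp wide and lay wholly within the 122 bp exon, while that of WT 3 began 114 bp before it. At Crmp1, the 5 KO peaks were 261 to 387 bp wide and reached 27 to 124 bp before and 68 to 114 bp past the 166 bp exon. At Atp5b, the peaks of WT 1, WT 4 and WT 5 again lay inside the exon of 185 bp, and those of WT 2 and the 5 KO livers reached 51 to 105 bp before it. The 2 Pparg peaks, from WT 1 and WT 4, lay within the exon of 200 bp, and that of WT 1 began at its first base. Over all exonic peaks, 98.7 to 99.3% of the bases were exonic in WT 1, WT 4 and WT 5, 76.4 to 77.4% in WT 2 and WT 3 and 85.9 to 88.5% in the KO livers.

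Fewer peaks were called in WT than in KO livers, and a smaller share of them fell on protein-coding exons. The 5 WT livers had 11901, 917, 828, 8211 and 2179 peaks and the 5 KO livers 24019, 22355, 25016, 21632 and 19472. The groups did not overlap, and the geometric mean was 8.11-fold higher in KO livers (log2 difference -3.02, exact two-sided permutation test, adjusted p = 0.00992). Peaks with their summit in a coding gene's exon made up 37.8, 17.3, 19.8, 40.6 and 32.1% of the WT and 62.4, 72.6, 79.6, 79.2 and 80.9% of the KO lists. These shares did not overlap either, at 29.5 ± 10.5% and 74.9 ± 7.73% (SD, n = 5, exact permutation test, adjusted p = 0.00992). Without WT 1, WT 4 and WT 5 the differences were -4.69 (log2) and -56.4 percentage points, each with an adjusted p of 0.0476 by the same exact test, the smallest that 2 against 5 livers allow.

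The number of genes with a peak summit in an exon followed the same order. It was 2202, 133, 145, 1701 and 448 in the WT livers and 5171, 5466, 6011, 5419 and 5205 in the KO livers. No WT liver reached the lowest KO liver, and the geometric mean was 10.8-fold higher in KO livers (log2 difference -3.44, exact permutation test, adjusted p = 0.00992). WT 2 and WT 3 had the fewest genes, although WT 3 had kept the most tags of the 10 libraries. Peaks outside all annotated exons numbered 4552, 564, 466, 2432 and 728 in WT and 7728, 4597, 3548, 3108 and 2447 in KO livers. Here the groups overlapped, through WT 1, and the 3.40-fold difference did not pass the threshold (two-sided exact permutation, adjusted p = 0.0556). It passed the threshold without WT 1, and its direction turned when all lists had the length of the shortest (log2 difference 2.23, adjusted p = 0.0132).

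**Figure D1:**
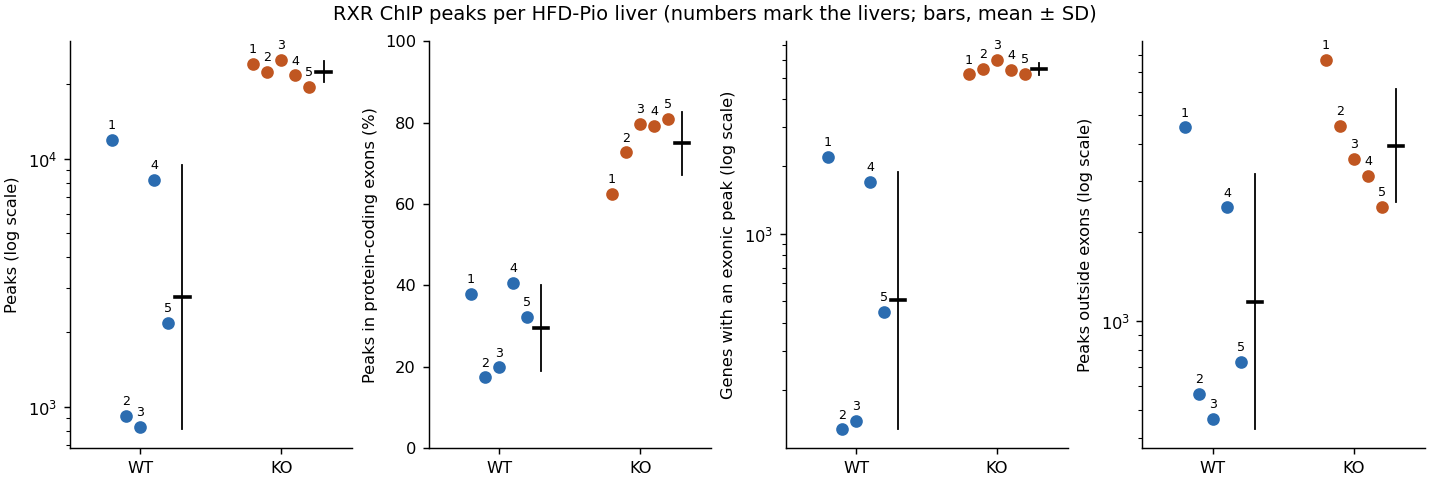
Number of peaks, share of peaks in protein-coding exons, number of genes with an exonic peak and number of peaks outside annotated exons in each HFD-Pio liver, with numbers marking the livers and bars the mean ± SD (on the log scale in the panels with a log axis). WT and KO livers do not overlap in the first 3 panels and overlap in the last, where WT 1 had 4552 peaks and KO 5 had 2447.

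Exonic peaks were spread differently over transcripts in the 2 genotypes. In WT livers 72.9 to 83.2% of exonic summits lay in coding sequence and 16.1 to 25.3% in 3′ UTRs, whereas in KO livers 56.4 to 58.8% lay in coding sequence and 38.6 to 41.8% in 3′ UTRs. The 5′ UTR held 0.719 to 3.23% in WT and 1.75 to 2.62% in KO livers. Exons of pseudogenes and non-coding genes held 21.2 to 34.5% of WT peaks and 5.46 to 6.79% of KO peaks, and 92.8 to 95.7% of the former and 43.9 to 50.7% of the latter were pseudogene exons. None of these ranges except that of the 5′ UTR overlapped between genotypes, and no further test was made of them.

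Of 9091 protein-coding genes with an exonic peak in any liver, 5314 were called in at least 3 of 5 livers of a genotype. KO only genes, called in at least 3 KO and no WT liver, numbered 3760, which was 70.8% of the 5314, and 2115 of them were called in all 5 KO livers. WT only genes numbered 94 (1.77%), with 10 called in all 5 WT livers, and 306 genes (5.76%) were called in at least 3 livers of both genotypes. The other 1154 genes were called in 1 or 2 livers of the second genotype, with 1104 of them found in more KO livers. Of the 450 genes recurrent in WT livers 68.0% were also recurrent in KO livers, and of the 5170 recurrent in KO livers 5.92% were recurrent in WT livers. Without WT 1, WT 4 and WT 5, where recurrence in WT meant 2 of 2 livers, only 11 genes were WT only and 58 were in both. With every list cut to the length of the shortest, 97 genes were WT only, 293 KO only and 43 in both.

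For the 5605 genes called in at least 3 of 10 livers, numbers of livers were compared by Fisher's exact test (two-sided). It called 10 genes with more WT livers (0.178% of those tested) and 2115 with more KO livers (37.7%), and 3348 genes had an unadjusted p below 0.05. With 5 livers per group, genes called in all livers of a genotype and none of the other were the only ones to pass (exact p = 0.00794, adjusted p = 0.0209). None passed without WT 1, WT 4 and WT 5, when 2958 genes had an unadjusted p below 0.05, all with more KO livers. With lists of equal length it called 24 genes with more WT and 159 with more KO livers.

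The leading WT only genes held genes of liver and gut and single-exon copies of ribosomal protein genes. Selenbp2, a selenium-binding protein of the liver, had a fold enrichment of 23.3, 3.98, 4.44, 20.2 and 8.17 in WT 1 to WT 5 for its strongest exonic peak. WT 1 and WT 4 were highest and WT 2 and WT 3 lowest, and no KO liver had an exonic peak. Gpx2, a glutathione peroxidase of gut epithelium, followed with 19.1, 7.31, 6.34, 11.2 and 9.15. Selenbp2 has a close paralog, Selenbp1, called in 4 WT livers (mean fold enrichment 13.5), so that reads shared by the pair may have been placed on either.

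A further 5 of the 8 leading WT only genes were Gm10260, Gm11361, Gm8797, Rps27rt and Rpl10-ps3. Each has 1 exon, and the last 2 are named as copies of the ribosomal protein genes Rps27 and Rpl10. Their mean fold enrichments were 13.2 ± 10.4 for Gm10260, 11.9 ± 7.94 for Gm11361, 11.9 ± 6.48 for Gm8797, 10.7 ± 7.09 for Rps27rt and 10.3 ± 6.18 for Rpl10-ps3 (SD, n = 5). Reads of such copies can belong to the parent gene or to other copies, and these calls are uncertain. Single-exon genes made up 9.57% of the WT only, 1.89% of the KO only and 2.94% of the shared genes, against 6.72% of all protein-coding genes. Median exon numbers were 5, 11 and 7.

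Most of the 8 leading KO only genes are known from neurons or developing brain. Mapt, the microtubule-binding protein tau, had a fold enrichment of 20.4, 29.3, 36.0, 34.0 and 28.0 in KO 1 to KO 5 and no exonic peak in any WT liver. Crmp1, which acts in growth cone guidance, had 23.5, 31.9, 27.6, 23.4 and 33.5. Neither gene varied 2-fold across KO livers, and peaks were found on 8 of 10 exons of Mapt and 13 of 14 exons of Crmp1. Map1b, another microtubule-associated protein of axons, had 27.5 ± 4.95 (SD, n = 5) with peaks on 7 of 7 exons.

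The highest KO only values belonged to Ptms and Nnat. Ptms, the small acidic nuclear protein parathymosin, had 31.1, 33.1, 47.9, 48.4 and 43.5. Nnat, or neuronatin, a proteolipid of developing brain, had 33.8, 40.5, 48.1, 38.1 and 38.8. All 10 of these values exceeded the highest of any leading WT only gene, 29.9 for Gm10260 in WT 4. Basp1, a growth-associated membrane protein of nerve endings, had 36.9 ± 6.57 (SD, n = 5), Nrep, a neuronal regeneration protein, 33.4 ± 2.89 and Dpysl3, a dihydropyrimidinase-like protein of growth cones, 30.4 ± 4.48.

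**Figure D2:**
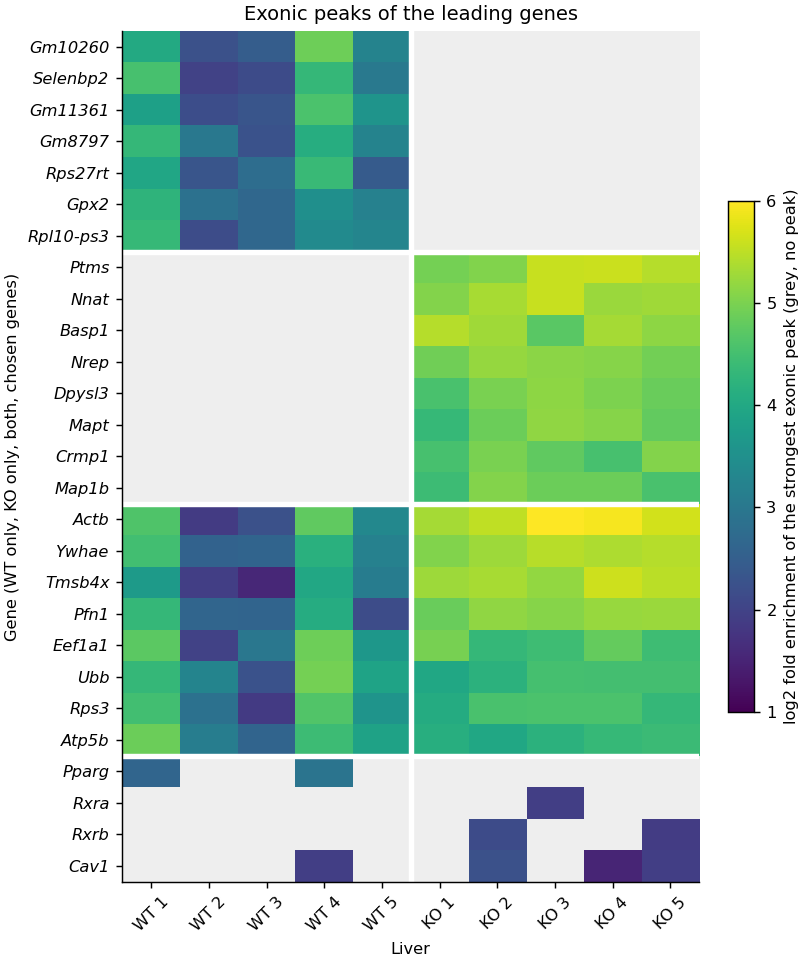
Strongest exonic peak of each leading gene in each liver, as log2 fold enrichment over input (colour), with grey where no exonic peak was called. Rows hold 7 of the leading WT only genes, the 8 leading KO only and the 8 leading shared genes and, below, those of the chosen receptor and exemplar genes with an exonic peak, and for most shared genes WT 2 or WT 3 holds the lowest value.

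Among the genes called in both genotypes were cytoskeletal and translation genes of every cell. Actb, cytoplasmic actin, had a fold enrichment of 24.6, 3.64, 4.73, 27.4 and 10.1 in WT and 40.2, 46.0, 64.8, 61.3 and 50.5 in KO livers. Tmsb4x, the actin-binding thymosin β4, had 13.2, 3.82, 2.96, 16.02 and 8.59 in WT and 38.5, 40.5, 36.5, 49.4 and 44.6 in KO livers. Both were higher in every KO than in any WT liver. Ubb, a polyubiquitin gene, had 20.02, 9.49, 4.80, 31.0 and 14.9 in WT and 15.7, 18.4, 22.9, 22.9 and 22.8 in KO livers, where WT 4 was the highest of all. Atp5b, the β subunit of mitochondrial ATP synthase, overlapped likewise, at 16.1 ± 9.56 and 18.7 ± 2.24 (SD, n = 5).

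Strength could be tested at 41 genes called in all 10 livers, after centring each liver on its median over these genes. The medians ran from 5.64 to 20.2 in WT and from 9.43 to 13.96 in KO livers, and the centring shift between genotypes was -0.15 (log2, WT minus KO). With limma, 4 genes were higher in WT (9.76% of those tested) and 5 in KO livers (12.2%), at an adjusted p below 0.05 and at least 2-fold, with a spread pooled mainly over genes (157 prior degrees of freedom). Relative to the other genes, Tmsb4x was 5.14-fold, Actb 4.50-fold, Pfn1 3.47-fold and Ywhae 3.39-fold higher in KO livers. Pfn1 encodes the actin-binding profilin and Ywhae a 14-3-3 protein. The fifth, Gm10800, was 2.09-fold higher (limma adjusted p = 0.0265), a call lost without WT 1, WT 4, WT 5, KO 2, KO 4 or KO 5 and in an exact permutation test per gene (adjusted p = 0.0685).

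The 4 genes relatively higher in WT livers have mitochondrial, cytoskeletal or glycolytic roles. Slc25a5, an ADP/ATP carrier of the inner mitochondrial membrane, had a fold enrichment of 24.8, 8.29, 7.04, 32.1 and 8.28 in WT and 3.75, 4.72, 7.63, 3.80 and 5.65 in KO livers, a 2.96-fold difference after centring (log2 1.57 ± 0.25 SE, limma adjusted p = 2.35e-08). Ghitm, a mitochondrial inner membrane protein, was 2.22-fold, Rhoa, a small GTPase of actin stress fibres, 2.098-fold and Aldoart1, a testis copy of aldolase A with 1 exon, 2.02-fold higher. Reads of Aldoart1 can belong to its parent Aldoa, which was not called (log2 0.34, limma adjusted p = 0.228), so that its call is uncertain. With single livers left out, the log2 differences of Aldoart1 and Rhoa fell as low as 0.88, which is under 2-fold. In an exact permutation test per gene, Slc25a5, Ghitm and Aldoart1 had the smallest adjusted p reached by any of the 41 genes (0.0271) and Rhoa one of 0.0434. Without centring, the difference of Slc25a5 was 1.41 and it alone of the 4 passed, while Ghitm (0.99), Rhoa (0.91) and Aldoart1 (0.86) did not.

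**Figure D3:**
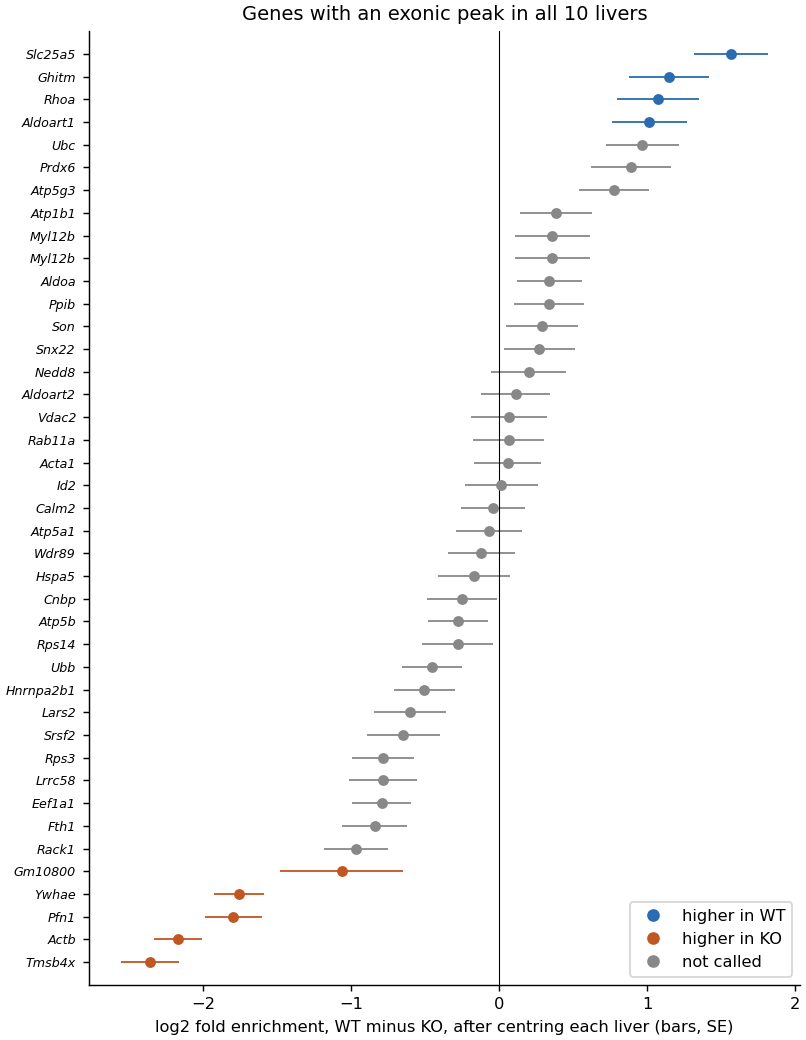
Difference in log2 fold enrichment (WT minus KO, each liver centred on its median) at the 41 genes with an exonic peak in all 10 livers, with bars for the SE from limma and colours for the calls. Tmsb4x and Actb lie lowest, Slc25a5 highest, and most genes lie between -1 and 1. Myl12b appears for each of the 2 gene entries that carry this symbol.

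The deleted gene and the receptors themselves had few peaks. Pparg had 11 exonic peaks on 5 exons in WT 1 and WT 4, with fold enrichments of 3.75 to 7.62. It had an additional peak in an intron in WT 1, and none in WT 2, WT 3, WT 5 or any KO liver. The 11 exonic peaks rested on pileups of only 3 to 9 tags. With 3 of 5 WT livers and 5 of 5 KO livers lacking a peak, these calls are no check of the genotype labels. Rxra had 1 exonic peak in KO 3 (3.81, 3 tags). Rxrb had exonic peaks in KO 2 (4.41, 4 tags) and KO 5 (3.68, 3 tags), and Rxrg had none in exons. Its 2 peaks outside exons were called in 1 KO liver each. Among 17 genes of RXR and its partners, Thra, a thyroid hormone receptor, was the only one recurrent, with exonic peaks in 5 KO livers at 23.6 and in WT 4 alone of the WT livers at 3.81. Thra is abundant in brain, and the source of its signal was not tested. Ppara, Nr1h3 and Vdr had no exonic peak.

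The 7 exemplar genes that the study used for hepatic PPARγ held 1 recurrent member. Cav1, the caveolar coat protein, was called in WT 4 (3.81) and in KO 2, KO 4 and KO 5 (2.85 to 4.72), so that its values overlapped (Fisher's exact test, adjusted p = 0.581). Its exonic peaks rested on pileups of 2 to 4 tags. Cd36, a fatty acid translocase, and Cidec, which fuses lipid droplets, had a single peak outside exons in WT 4, and Mogat1, an acyltransferase of triglyceride synthesis, a single one in KO 1. Cfd, the adipocyte protease adipsin, had 1 site in the 10 kb upstream, within an exon of the non-coding gene Gm19810, called in WT 1, WT 4 and KO 2 to KO 5 at 5.60 to 10.3. Fabp4, the fatty acid carrier of adipocytes, and Plin4, a lipid droplet coat protein, had no peak in the gene or 10 kb upstream in any of the 10 livers. None of the sites at these genes or at Pparg and the RXR genes held the direct repeat of PPARγ and RXR.

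Cholesterol and fatty acid synthesis genes were recurrent in KO livers, at a KO only share near that of all genes. In lists chosen with earlier results of these data known, 16 of 26 cholesterol and fatty acid synthesis genes were recurrent in KO livers and 0 in WT livers, and 11 were KO only. Hmgcs1, an early enzyme of the sterol pathway, had a mean fold enrichment of 12.9 in 5 KO livers, against 4.72 in WT 1 and WT 4. Fasn, fatty acid synthase, had 11.03, Acly, ATP citrate lyase, 7.97, and Srebf2, the transcription factor of the sterol pathway, 7.56, each in 5 KO and no WT livers. Among all recurrent genes 70.8% were KO only, and 11 of the 16 recurrent members of this list are close to that. With lists of equal length 2 of the 26 were recurrent in KO livers.

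Few fatty acid oxidation genes were recurrent in either genotype, and no test compared them with the synthesis genes. Of 29 members, 3 were recurrent in WT and 3 in KO livers, and per liver 15, 1, 1, 12 and 3 members were called in WT and 3 to 5 in KO. Of the 6 recurrent in either genotype, 2 were WT only and 1 was KO only. Among all recurrent genes these classes held 1.77 and 70.8%, so that the list departed from the base, and this departure was not tested. Etfb, a subunit of the electron carrier for acyl-CoA dehydrogenases, was WT only, called in 3 livers at 5.50. Ech1, an auxiliary enzyme of β-oxidation, was called in 3 WT livers at 12.8 and in 1 KO liver at 4.71. Of 21 lipid droplet and steatosis genes, Fabp1, the fatty acid-binding protein of liver and gut, was WT only (4 livers, 7.77), and Vldlr (3.98), Lpl (4.02) and Scd1 (4.02) were KO only. Of 16 LXR and FXR targets, Abca1, the cholesterol exporter, was the only recurrent one, in 5 KO livers at 4.17.

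Cofactors of nuclear receptors were called in KO livers at rates near those of all genes. The list held 12 genes, of which 10 were called in each of the 5 KO livers and 0 in more than 2 WT livers. Ncor1, a corepressor, had a mean of 6.45 in KO livers and 5.52 in 1 WT liver, and Crebbp, an acetyltransferase, had 6.08 in 5 KO livers with no WT peak. Fisher's exact test called 5 of the 12, where it called 37.7% of all genes tested, and 5 of the 10 recurrent members were KO only, against 70.8% of all recurrent genes. When lists were brought to equal length, 0 of the 12 remained recurrent in either genotype.

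Markers of the labelled tissue were largely without exonic peaks. Of 54 secreted liver protein genes, 47 had none in any liver, Alb, Apoa1 and Fgb among them, and the 3 recurrent ones were KO only, namely Ttr at 19.8, Apoe at 11.4 and Vtn at 3.68. Of 46 hepatocyte enzyme and transporter genes, 33 had none, including Cps1, Cyp2e1 and Cyp3a11. Adh1, alcohol dehydrogenase (10.3), and Ugt2b1, a glucuronosyltransferase (11.5), were WT only with 3 livers each, Gstm1, a glutathione transferase (6.75), was KO only, and Glul, glutamine synthetase (8.98 and 9.08), was in both. Transthyretin and apolipoprotein E are made outside the liver as well, in choroid plexus and astrocytes, and the source of the signal at these 3 genes was not tested.

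Neuronal genes were the most complete list in KO livers, closely followed by splicing factors and hnRNPs (32 of 34 recurrent). Of 56 synaptic and neuronal genes, 53 were recurrent in KO livers and 3 in WT livers, 46 were KO only, and Fisher's exact test called 40 with more KO livers. Over all genes, 70.8% of those recurrent were KO only and 37.7% of those tested were called with more KO livers. The list was chosen with earlier results of these data known, so that its counts are no independent test. With lists of equal length 23 members were recurrent in KO livers and 1 in WT livers. Per liver, 50 to 54 members were called in KO and 2 to 6 in WT livers, so that the groups did not overlap, and Nefh was the only member with no peak. Tubb3, neuronal tubulin, led with a mean of 44.4 in 5 KO livers and 8.03 in 4 WT livers. Rtn1, a reticulon of neurons (26.0), Gap43, a growth cone protein (26.0), and Stmn2, a stathmin (24.2), were called in 5 KO and 0 WT livers. Of 20 myelin and astrocyte genes 9 were recurrent in KO and 1 in WT livers, and 6 of the 9 were KO only, near the 70.8% of all recurrent genes. Among the 9 were Sparcl1 at 12.0, Gja1, an astrocyte connexin, at 8.36 and Slc1a3, a glutamate transporter, at 6.40.

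Intestinal genes were called mainly in WT 1, WT 4 and WT 5. Of 30 members 7 were WT only and 0 recurrent in KO livers, and 11, 1, 1, 10 and 7 were called in the 5 WT livers against 0, 0, 0, 0 and 1 in the KO livers. Agr2, a disulphide isomerase of mucous cells (14.3), and Zg16, a lectin of goblet cells (11.6), were called in 4 WT livers each. Krt8 (18.2), Krt20 (11.1) and Krt19 (10.9), keratins of simple epithelia, Lgals4, a gut galectin (6.81), and Cdh17, the liver-intestine cadherin (5.93), were called in 3. Fabp2, Sis, Cdx1, Cdx2 and 14 other members had no peak. All 7 lost recurrence without WT 1, WT 4 and WT 5, when it meant 2 of 2 WT livers. WT 2 and WT 3 called 1 member each, among 133 and 145 genes with an exonic peak, and KO 5 called 1 among 5205. Fisher's exact test called 0 of the 30, and 1.77% of all recurrent genes were WT only. With lists of equal length 3 members were recurrent in WT livers.

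The number of neuronal members called thus differed between every WT and every KO liver, as did the number of all genes called. More intestinal members were called in WT 1, WT 4 and WT 5 than in WT 2, WT 3 and the KO livers. However, WT 2 and WT 3 had exonic peaks in only 133 and 145 genes of any kind. WT 1, WT 4 and WT 5 had them in 2202, 1701 and 448 genes. The low intestinal counts of WT 2 and WT 3 therefore do not set these livers apart. Both lists were chosen with earlier results of these data known, and the part of either in the other differences was not tested. In whole liver, fewer cells of a type and less signal per cell cannot be told apart. Exonic peaks are not a measure of cell types, and the source of this signal was not tested. The other tissue lists were mixed. Of 15 smooth muscle genes 10 were recurrent in KO and 2 in WT livers, with Acta2, smooth muscle actin, in both at 15.6 in WT and 7.57 in KO livers. Of 30 Kupffer, endothelial and stromal genes 10 were recurrent in KO and 2 in WT livers, with Vim, vimentin, in both at 8.77 and 11.7. In the smooth muscle list 2 of 10 recurrent members were KO only, and in the Kupffer, endothelial and stromal list 3 of 10. Among all recurrent genes 70.8% were KO only. Muscle actins Acta1 and Actc1 were the 2 recurrent members of 20 skeletal and cardiac muscle genes in either genotype. Lymphoid genes had 1 recurrent member of 17 (Coro1a, KO only, 4.96), adipose genes 2 of 12 (Pck1, WT only, 6.74, and Lpl), testis and pancreas genes 1 of 19 (Odf2, KO only, 4.16), and kidney and lung genes had no exonic peak at all in 17 members.

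Housekeeping machinery was recurrent in both genotypes, with more members in KO livers in every such list but one. With lists of equal length that order turned for oxidative phosphorylation (13 members recurrent in WT, 5 in KO livers), proteasome (3 and 0) and tricarboxylic acid cycle genes (1 and 0), and glycolytic genes had 2 and 2. The exception was the cytosolic ribosomal proteins, of which 39 of 80 were recurrent in WT and 34 in KO livers, and 16 were WT only against 3 KO only. Per liver 69, 8, 9, 69 and 37 members were called in WT and 32 to 37 in KO livers, so that the groups overlapped. Rps19 (13.3) and Rpl37 (13.5) were called in 4 WT livers and 0 KO livers, whereas Rps3 was called in all 10. Of all recurrent genes 1.77% were WT only, and Fisher's exact test called 0 of the 80 genes. Without WT 1, WT 4 and WT 5, 2 of the 80 were recurrent in WT livers, here called in 2 of 2 livers.

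Oxidative phosphorylation genes of the nucleus were recurrent in KO livers for 54 of 77 members and in WT livers for 23. Of the 60 members recurrent in either genotype, 17 were KO only, 17 in both and 3 WT only. Among all recurrent genes 70.8% were KO only, 5.76% in both and 1.77% WT only, so that the list held a smaller KO only share than all genes. The WT only members Atp5g1 (15.9), Atp5g2 (14.3) and Atp5l (13.1) encode parts of ATP synthase. Atp5a1 and Atp5b were called in all 10 livers, and Ndufb9, a complex I subunit, had 19.7 in 3 WT and 7.04 in 5 KO livers. Tricarboxylic acid cycle enzymes were recurrent for 16 of 18 members in KO and 3 in WT livers, and 4 of the 17 recurrent in either were KO only. Mdh2, malate dehydrogenase, had 8.90 in 5 KO and 9.36 in 2 WT livers.

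Translation factors were recurrent for 30 of 34 members in KO and 12 in WT livers, led by Eef2 at 30.5 in KO livers and by Eif1 at 18.8 in WT livers. Splicing factors and hnRNPs were recurrent for 32 of 34 in KO and 11 in WT livers, proteasome subunits for 28 of 31 and 10, chaperones for 26 of 31 and 7, and glycolytic and gluconeogenic enzymes for 13 of 22 and 4. In the order named, KO only members were 2 of 30, 7 of 32, 2 of 28, 6 of 27 and 3 of 14 recurrent ones. Among all recurrent genes the KO only share was 70.8%. Hsp90ab1, a cytosolic chaperone, had 32.8 in 5 KO and 8.91 in 4 WT livers. Ppia, cyclophilin A, a gene with many processed copies, was WT only (4 livers, 8.51). Pck1, the first committed enzyme of gluconeogenesis, was WT only with 3 livers, and Aldoc, the aldolase of brain, was called in 5 KO livers at 5.52.

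**Figure D4:**
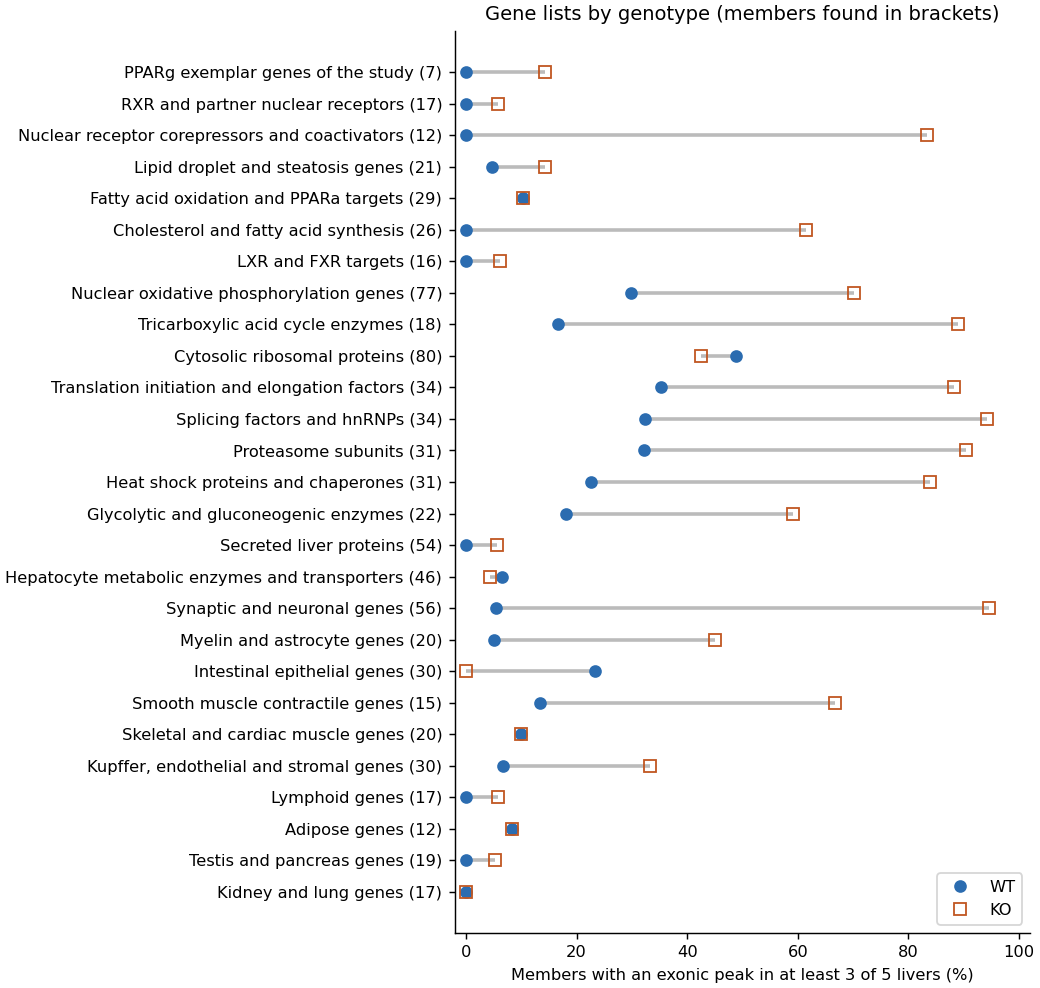
Share of each gene list with an exonic peak in at least 3 of 5 livers, for WT (filled circles) and KO livers (open squares), with the number of members found in brackets. Ribosomal, hepatocyte enzyme and intestinal genes are the lists where WT exceeded KO livers, and the widest gap is that of synaptic and neuronal genes, with 53 and 3 of 56 members.

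Outside annotated exons there were 23321 sites, 33.4% of the 69745, and 481 of them (2.06%) were recurrent, against 27.2% of the 40903 sites in coding exons. Of the 481, 90 were WT only (18.7%), 270 KO only (56.1%), 40 in both (8.32%) and 81 mixed. With lists of equal length the order of the first 2 classes turned, at 44 WT only, 15 KO only and 7 in both. Introns held 66.7% of the KO only and 31.1% of the WT only sites. A further 27.4% of the KO only sites lay downstream of the nearest gene, 49 of these 74 within 5 kb. Of 234 KO only sites within 5 kb of a gene, 151 (64.5%) were next to or within a gene whose exons were KO only, where 3 of 42 WT only sites (7.14%) were near a gene whose exons were WT only. Among all recurrent genes 70.8% were KO only and 1.77% WT only, a base that leaves out the genes without recurrent peaks counted among these neighbours, so that no special nearness is read from the shares.

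The KO only sites with the highest values lay in introns of Copg2, which encodes a coat protein of transport vesicles. The site at chr6:30804672-30808719 had a fold enrichment of 27.5, 19.3, 20.9, 26.9 and 35.9 in KO 1 to KO 5, and the neighbouring sites at chr6:30803082-30804627 and chr6:30802674-30803037 had means of 21.6 and 13.3. All 3 were called in every KO and no WT liver. A site in an intron of Gm49450 (chr15:98953330-98953541) had 24.4 ± 6.78, and a site downstream of E330021D16Rik (chr6:136398406-136398911) had 11.7 ± 2.07 (SD, n = 5). The sequence of the latter matched the spliced transcript of Tubb3 with 99.0% identity, and Tubb3 was itself called in 5 KO and 4 WT livers.

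WT only sites outside exons were often near-copies of the transcripts of other genes. In a 101 bp window at the summit, 60 of 90 WT only sites (66.7%) matched the spliced transcript of another protein-coding gene with at least 90% identity over at least 60 bp, where the same windows moved by 10 kb matched in 17.8%. Not every match was distant. Several WT only sites from chr9:3005648 to chr9:3034107 matched Gm10717, Gm10718 or Gm10721, which are themselves the nearest genes of sites in that stretch. Of KO only sites 4.81% matched, as did 4.81% of their moved windows, and of sites in both genotypes 40% matched against 10%. The site in an intron of Wrap53 (chr11:69573732-69573954), with 23.5, 4.38, 3.59, 29.2 and 6.16 in WT 1 to WT 5, matched Rps27 at 100% identity. Sites near Ccnd2, 1700006A11Rik and Serpine2 matched Calm2 (98.0%), Ptma (100%) and Slc25a5 (100%), and the one near Zfp608 matched none. Rps27 itself had exonic peaks in 3 WT and 0 KO livers. Calm2 and Slc25a5 had them in 5 livers of each genotype, and Ptma in 5 WT and 4 KO livers. Reads of sites that match a transcript cannot be assigned to the site or the parent gene from the deposited lists.

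Sites called in all 10 livers outside exons were headed by one 170.8 kb downstream of Samd9l, with 12.0 ± 11.4 in WT and 13.3 ± 5.15 in KO livers (SD, n = 5). A site 0.312 kb downstream of Zw10 had 14.7 ± 13.7 and 7.62 ± 1.76 and matched Rps14 (98.0%), and one upstream of Nek6 had 13.5 ± 11.9 and 5.21 ± 0.895 and matched Tmsb10 (95.9%). A site near Mc2r matched no transcript and one near Tra2a matched Lars2 (98.0%). At each of these 5 sites the values of the genotypes overlapped.

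**Figure D5:**
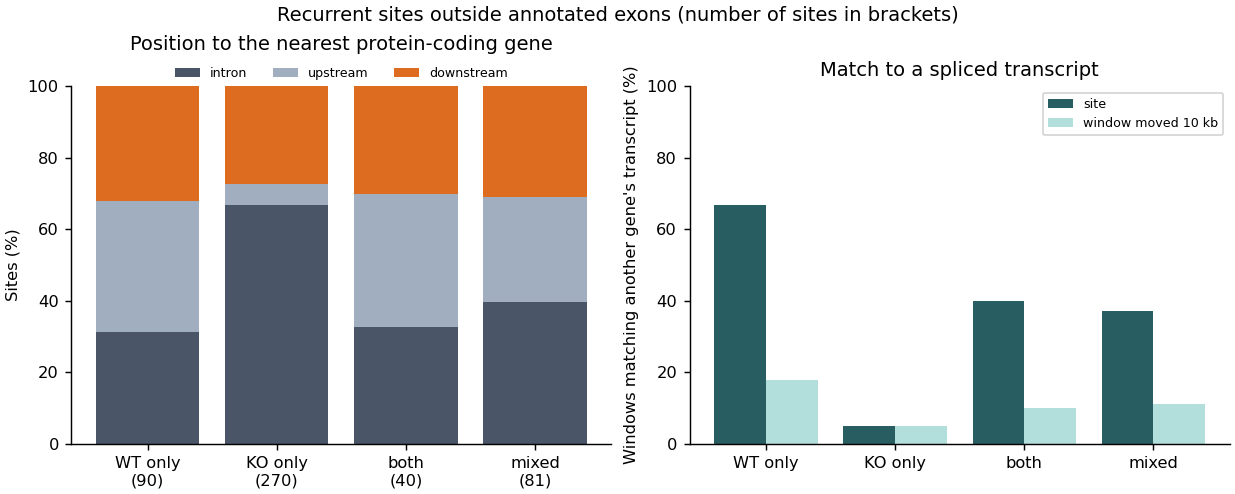
Recurrent sites outside annotated exons by class, with their position relative to the nearest protein-coding gene (left, percent of sites) and the percent of 101 bp windows that match the spliced transcript of another gene (right, dark bars) beside the same windows moved by 10 kb (light bars). Introns hold 66.7% of KO only sites, and transcript matches are most frequent in WT only sites at 66.7%.

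The direct repeat that PPARγ and RXR bind was searched for within 100 bp of each summit outside exons. The motif was AGGTCA, any single base, then AGGTCA, on either strand, with at most 2 mismatches in the 12 fixed bases. It was present at 1.80, 2.30, 1.72, 1.97 and 1.51% of the WT peaks and 2.77, 2.83, 3.21, 2.38 and 2.57% of the KO peaks. The shares did not overlap, at 1.86 ± 0.299% and 2.75 ± 0.311% (SD, n = 5, exact permutation test, adjusted p = 0.00992). The same windows moved by 10 kb held it in 2.04 and 2.77%, so that peaks exceeded their own moved windows in 2 of 5 WT and 2 of 5 KO livers. Among 32851 RefSeq promoters of GRCm38, windows of the same length held it in 2.57%. The difference was not past the threshold for peaks whose -log10 q was 5 or more (-0.67 percentage points, adjusted p = 0.349) or a fold enrichment of at least 5 (-0.175, adjusted p = 0.667), and its direction turned with lists of equal length (2.30, adjusted p = 0.0298). GC content of the outside peaks, taken over the peak intervals and not the searched windows, was 32.1 to 46.0% in WT and 45.6 to 47.9% in KO livers. Its part in this difference was not tested.

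Of the 481 recurrent sites, 12 (2.49%) held the repeat, and the 8 called in most livers are given to show what the matches look like. Each line gives the reference sequence (GRCm38) of 61 bases with the 13 bases of the repeat in capitals, written on the strand that carries it, and the name of the nearest gene. The Jarid2 window is chr13:44869516-44869576 (plus strand), Alkbh8 is chr9:3258916-3258976 (minus), 1810013L24Rik is chr16:8848842-8848902 (minus), Pcm1 is chr8:41333721-41333781 (minus), Mpped1 is chr15:83788776-83788836 (minus), Kap is chr6:133761234-133761294 (plus), Htr1f is chr16:64917768-64917828 (plus) and Rsph4a is chr10:33893877-33893937 (plus).
Jarid2: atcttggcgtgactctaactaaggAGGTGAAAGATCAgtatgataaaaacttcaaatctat
Alkbh8: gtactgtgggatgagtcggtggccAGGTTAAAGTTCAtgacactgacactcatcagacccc
1810013L24Rik: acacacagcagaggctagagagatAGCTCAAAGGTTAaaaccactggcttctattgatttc
Pcm1: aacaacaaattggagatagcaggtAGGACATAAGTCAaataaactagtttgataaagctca
Mpped1: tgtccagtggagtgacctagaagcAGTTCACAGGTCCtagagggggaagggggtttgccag
Kap: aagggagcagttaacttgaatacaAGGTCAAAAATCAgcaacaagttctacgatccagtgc
Htr1f: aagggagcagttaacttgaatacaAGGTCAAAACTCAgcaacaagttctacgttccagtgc
Rsph4a: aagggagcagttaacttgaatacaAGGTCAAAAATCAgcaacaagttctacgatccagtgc

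None of the 8 was an exact repeat, since each had 2 mismatches. The Kap and Rsph4a windows were identical over 61 of 61 bases and the Htr1f window differed from them at 2, although they lie on 3 chromosomes. All 3 sites were WT only with 3 livers each (mean fold enrichments 10, 7.74 and 8.43 for Kap, Rsph4a and Htr1f) and matched the transcript of Actg1, cytoplasmic γ-actin, at 99.0 to 100% identity. Actg1 itself had exonic peaks in 5 WT and 4 KO livers. The Jarid2 site, in an intron, was called in 4 WT livers at 7.49 and in 5 KO livers at 7.02. The sites of 1810013L24Rik, Pcm1 and Mpped1 were KO only, at 3.91, 3.98 and 3.47, and the site upstream of Alkbh8 was called in 2 WT and 3 KO livers. None of these genes is among those named for PPARγ above.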

How the data were processed

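The authors aligned reads to mm10 with Novoalign and, per the file headers, peaks were called with MACS2 (version 2.1.1.20160309), one ChIP library at a time, over the matching input. The deposited lists give the fold enrichment over local input (a ratio), −log10 q and the pileup (a signal, in tags) of each peak, and the study's differential test needs reads and was not repeated. The WT headers state that q was not computed, yet the lists hold q values, which were used. Tag numbers and cutoffs were read from the headers deposited by the authors, and depth sets the precision as given above. Replicate libraries were taken as animals because the study's methods give mice per group, and their labels do not pair them across genotypes.

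Summits of 1 interval were joined, and peaks with a q of at most 0.05 were placed by summit on GENCODE M21 exons. A gene's value was the largest fold enrichment among its exonic peaks. Recurrent meant at least 3 of 5 livers, or 3 of those left without 1 liver, and 2 of 2 WT livers without WT 1, WT 4 and WT 5. Single values were compared by exact two-sided permutation tests over 252 assignments (smallest p 0.00794), adjusted by Benjamini-Hochberg over 5 values, genes by Fisher's exact tests, and 41 genes by limma 3.58.1 with trend in R 4.3.3, adjusted over all genes tested. Scripts ran under Python 3.11.15 with pysam 0.24.0, scipy 1.17.1, pandas 2.3.3 and numpy 2.4.6, and were tested on simulated data.

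The members and the 27 gene lists (791 of 796 symbols matched) were chosen with earlier results of these data known. Named genes were Pparg, the RXR genes and 7 exemplar genes, the 8 of each class with the largest difference in livers, then by mean fold enrichment, all limma calls up to 5 each way, 2 to 4 members per list, the 5 leading outside sites per class, and genes of printed sequences. Selenbp1 and members named for having no peak were chosen after their values were seen. Some genes that the rule names are not reported here. Alternatives covered q and fold thresholds, all deposited peaks, equal list length, 4 of 5 livers, overlap rules, each liver left out, WT 1, WT 4 and WT 5 left out, and the replicate block. Genes sharing peaks counted once, the list counts under alternatives and the permutation test per gene were added after seeing the data.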

Additional observations from a re-analysis of the deposited data

Results flagged for a closer look

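Peaks on the mitochondrial chromosome were left out of every comparison. The lists held up to 5 of them in a WT library (WT 4) and up to 26 in a KO library (KO 4 and KO 5), at the thresholds of the deposited lists. Among 42 groups of 5 livers examined for a single value far from the rest (the single values and the leading genes), 0 held one, where chance gives about 1 in 20.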

How the results depend on the processing

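The direction of the differences in peak number, exonic share and gene number was the same under every alternative tried, and the calls were kept except under the replicate block. Peaks outside exons were reversed with all deposited peaks (0.49, adjusted p = 0.508) and with lists of equal length (2.23, adjusted p = 0.0132), and the share with a direct repeat was reversed with lists of equal length (2.30 percentage points, adjusted p = 0.0298). That share was -0.67 (adjusted p = 0.349) with a -log10 q of at least 5 and -0.175 (adjusted p = 0.667) with a fold enrichment of at least 5, all by exact permutation tests. The causes were not tested.

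With a -log10 q of at least 5 there were 1650 KO only genes, 102 in both and 39, 55 and 13 outside sites (WT only, KO only, both), and Fisher's test called 3 genes for WT and 744 for KO. A fold enrichment of at least 5 gave 1495 KO only genes, 145 in both, 800 KO calls, and 54 KO only and 19 shared outside sites. All deposited peaks gave 171 WT only genes, 538 in both, 17 WT calls and 153 WT only outside sites. Lists of equal length gave 293 KO only genes, 43 in both, 24 WT and 159 KO calls, and 44, 15 and 7 outside sites. At least 4 of 5 livers gave 29 WT only genes and 104 in both, and 27, 119 and 15 outside sites. Without centring limma called 1 gene higher in WT, and among genes called in at least 4 of 5 livers of each genotype 11 higher in WT and 17 in KO livers.

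Leaving out WT 1, WT 4 and WT 5 gave 11 WT only genes and 58 in both, and 15 WT only and 6 shared outside sites. Recurrent in WT then meant 2 of 2 livers. The difference in outside peaks was -2.94 (exact permutation test, adjusted p = 0.0476). There were 8 limma calls for KO and 0 Fisher calls either way, with 0 WT and 2958 KO genes at an unadjusted p below 0.05. Leaving out single livers gave 29 to 101 WT only genes, 113 to 298 in both, 3173 to 4155 KO only, 27 to 111, 174 to 279 and 16 to 41 outside sites, 10 to 20 WT and 2115 to 2388 KO Fisher calls, 2 to 8 limma calls for WT and 4 to 11 for KO, and a difference in outside peaks of -2.26 to -1.43. WT only and shared classes fell by over 1.5 times without WT 1 (29 and 113 genes, 27 and 16 sites), WT 4 (29 and 115, 32 and 16) or WT 5 (32 and 137, 36 and 17). KO only sites numbered 174 without KO 2. The outside difference passed without WT 1 (-2.26, exact permutation test, adjusted p = 0.00794) and WT 4 (-2.03, adjusted p = 0.0476). WT Fisher calls were 18 without WT 2 and 20 without WT 3, limma calls 8 and 11 without WT 2, 9 for KO without WT 3 and 2 for WT without KO 5.

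With the replicate block, the differences of -3.02, -45.4, -3.44 and -0.89 (peaks, exonic share, genes, repeat share) had an adjusted p of 0.0625 in an exact test, the smallest that 5 pairs allow. Same-numbered livers are different animals, and their deviations over 41 genes correlated from -0.31 to 0.25, above 0.1 in 2 of 5 pairs and best with the own number in 1 of 5, so that the numbers were not taken as pairs.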
